A study of Homo sapiens with 58 samples.

Results

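The 39 genes described here encode the hypoxia-inducible factor (HIF) subunits and oxygen sensors, well-known HIF target genes and the enzymes and transporters of glucose uptake and glycolysis. They were taken as a list of gene symbols, with no measured value in the rule. The list was chosen with earlier results of these data known, so its counts are not those of a list fixed beforehand. All 39 were found among the 60675 gene identifiers of the count table, and all 39 passed the filter on low counts that left 13945 genes for testing. For this account 20 of them were grouped as HIF genes and hypoxia targets and 19 as genes of glucose uptake and glycolysis.

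HIF is a transcription factor made of an oxygen-regulated alpha subunit (HIF1A or EPAS1) and a constant beta subunit. When oxygen is present, prolyl hydroxylases of the EGLN family mark the alpha subunit for destruction, so its activity is set mainly at the protein level rather than by its mRNA. Stabilised HIF binds short DNA elements and switches on genes for glucose uptake, glycolysis, acid export, blood vessel growth and mitophagy, the removal of mitochondria.

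HepG2 cells, a line grown from a human liver carcinoma, were treated for 24 h with 1 of 8 herbal extracts or with dimethyl sulfoxide (DMSO) alone as the vehicle. Sequencing of mRNA gave 58 libraries in 24 groups. The water extracts were the formulas Sayeok-tang (3 libraries at each dose) and Bojungikgi-tang (2 at each dose). The 70% ethanol extracts were Zingiberis Rhizoma Recens (fresh ginger rhizome, 3 at each dose), Zingiberis Rhizoma (dried ginger rhizome, 2 at the high dose and 3 at each of the others), Pinelliae Tuber and Scutellariae Radix (3 at each dose), Coptidis Rhizoma and Zizyphi Fructus (1 at each dose). High, medium and low doses were 500, 100 and 20 µg/mL, except for Coptidis Rhizoma, whose medium and low doses were 56 and 11.2 µg/mL. The vehicle had 3 libraries, with 0.1% DMSO by the sample labels and 2% by the series text. No DMSO content was read from the labels of the extract libraries. Whether the replicates came from separate cultures is not in the labels, and the p-values cover only the spread between these libraries, which may be technical. All sample titles, the vehicle's included, carry the term BatchC, which they do not explain. The label codes place the vehicle apart from 4 sets of extracts (the formulas, the gingers, Scutellariae Radix with Pinelliae Tuber, and Zizyphi Fructus with Coptidis Rhizoma), without saying what the code marks. If it stands for joint handling, handling and treatment cannot be told apart in a comparison with the vehicle, whereas doses of 1 extract and the extracts compared directly share a code.

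Total counts ran from 22143845 to 31859981 per library, and 21118 to 22865 identifiers had reads. The identity of the line was not tested. All 10 hepatocyte markers were present, with ALB between 7830 and 11200 CPM (read counts scaled to a common library size). Their summed level was 42220 to 42780 CPM in the vehicle and lower in 5 high-dose groups: 40580 to 41230 CPM in Bojungikgi-tang, 38480 to 40090 CPM in Zingiberis Rhizoma Recens, 36070 to 38990 CPM in Sayeok-tang, 36080 to 37310 CPM in Zingiberis Rhizoma and 30810 to 31270 CPM in Scutellariae Radix. It was also lower in Scutellariae Radix medium (34910 to 38740 CPM) and in the single libraries of Coptidis Rhizoma medium (35820 CPM) and Zizyphi Fructus low (37570 CPM). Several other groups lay above the vehicle range. The fibroblast markers COL1A2 and DCN and the leukocyte markers PTPRC and MS4A1 were at 0 in every library. Other leukocyte markers were present: LYZ at 1150 to 2320 CPM, CD68 at 26.9 to 74 CPM and CD14 at 1.1 to 2.84 CPM. Of 5 endothelial markers only 1, PECAM1 (1.69 to 4.17 CPM), reached 1 CPM in any library. Of the 6 fibroblast markers, 2 (PDGFRB and COL1A1) reached 1 CPM in any library, and the summed list was at 20.7 to 24.2 CPM at the high dose of Zingiberis Rhizoma Recens against 10.2 to 11.8 CPM in the vehicle. The summed leukocyte list, nearly all of it LYZ, was at 2067 to 2374 CPM there, 1903 to 2029 CPM in Sayeok-tang high and 1326 to 1406 CPM in the vehicle. The part of these markers in the results was not tested. Replicate 3 of Scutellariae Radix low and replicate 3 of Zingiberis Rhizoma low stood farthest from their groups. In the vehicle, replicate 3 was the highest of the 3 libraries for 29 of the 39 members (74.4%), against 31.4% of all genes tested, so the vehicle itself varied in these genes.

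The DNA just before the start sites of these genes is shown first, because HIF binds elements with the core ACGTG or GCGTG. RefSeq (assembly GRCh38.p14) gave the 250 bases before the start for 34 of the 39 members. Only the first start listed for each gene was used, and any other start was not searched. Either core, on either strand, occurred in 23 of the 34 (67.6%), against 43.1% of all 27303 promoters of the same length in the table. The core ACGTG alone occurred in 14 of the 34 (41.2%), against 18.7% of all promoters. A match is a description of letters and not evidence of a bound site. Printed 5′ to 3′ along the gene's own strand, with capitals for ACGTG or GCGTG and for their reverse complements CACGT and CACGC, are the promoters of CA9 and ANKRD37, among the steepest risers, of HK2, the member called most often, of 4 glycolytic enzymes, and of EGLN3 and PDK1, risers with no match in this window. The palindrome CACGTG counts once on each strand. Coordinates are chr9:35673678-35673927 (CA9, plus strand), chr4:185396591-185396840 (ANKRD37, plus), chr2:74833877-74834126 (HK2, plus), chr16:30064029-30064278 (ALDOA, plus), chr12:6535014-6535263 (GAPDH, plus), chrX:78103998-78104247 (PGK1, plus), chr11:18394313-18394562 (LDHA, plus), chr14:33951075-33951324 (EGLN3, minus) and chr2:172555123-172555372 (PDK1, plus).
CA9: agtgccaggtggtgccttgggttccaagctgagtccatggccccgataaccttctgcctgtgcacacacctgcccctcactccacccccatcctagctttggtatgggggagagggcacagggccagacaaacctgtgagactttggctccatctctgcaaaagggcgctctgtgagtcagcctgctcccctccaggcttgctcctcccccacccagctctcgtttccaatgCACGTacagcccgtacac
ANKRD37: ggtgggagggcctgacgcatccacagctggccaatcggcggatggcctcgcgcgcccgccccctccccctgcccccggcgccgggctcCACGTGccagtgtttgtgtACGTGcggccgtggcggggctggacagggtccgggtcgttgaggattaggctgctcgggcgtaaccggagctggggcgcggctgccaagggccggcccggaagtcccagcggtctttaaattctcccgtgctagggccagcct
HK2: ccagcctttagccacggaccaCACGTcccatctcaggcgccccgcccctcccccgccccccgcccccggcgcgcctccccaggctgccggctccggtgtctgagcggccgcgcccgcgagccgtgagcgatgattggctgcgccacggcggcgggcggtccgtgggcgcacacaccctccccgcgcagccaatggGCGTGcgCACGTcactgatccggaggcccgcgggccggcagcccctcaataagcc
ALDOA: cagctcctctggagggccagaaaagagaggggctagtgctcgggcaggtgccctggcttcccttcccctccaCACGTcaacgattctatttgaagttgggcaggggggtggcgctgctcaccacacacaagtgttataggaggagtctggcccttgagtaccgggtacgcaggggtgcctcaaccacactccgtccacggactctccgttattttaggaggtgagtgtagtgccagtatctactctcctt
GAPDH: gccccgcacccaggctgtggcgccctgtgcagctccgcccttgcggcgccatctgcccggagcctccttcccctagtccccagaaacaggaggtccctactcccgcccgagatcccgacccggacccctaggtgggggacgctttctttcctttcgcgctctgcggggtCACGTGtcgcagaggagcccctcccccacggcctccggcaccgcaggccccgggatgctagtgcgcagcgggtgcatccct
PGK1: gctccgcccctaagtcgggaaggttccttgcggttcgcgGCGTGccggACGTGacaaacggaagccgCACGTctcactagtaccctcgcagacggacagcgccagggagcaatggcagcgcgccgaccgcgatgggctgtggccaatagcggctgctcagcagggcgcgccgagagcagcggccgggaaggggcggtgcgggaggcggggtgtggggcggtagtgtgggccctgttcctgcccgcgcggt
LDHA: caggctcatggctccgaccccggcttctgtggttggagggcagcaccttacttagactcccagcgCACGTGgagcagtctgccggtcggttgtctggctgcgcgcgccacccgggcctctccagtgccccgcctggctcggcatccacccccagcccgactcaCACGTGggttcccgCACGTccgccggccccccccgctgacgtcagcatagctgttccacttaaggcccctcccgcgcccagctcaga
EGLN3: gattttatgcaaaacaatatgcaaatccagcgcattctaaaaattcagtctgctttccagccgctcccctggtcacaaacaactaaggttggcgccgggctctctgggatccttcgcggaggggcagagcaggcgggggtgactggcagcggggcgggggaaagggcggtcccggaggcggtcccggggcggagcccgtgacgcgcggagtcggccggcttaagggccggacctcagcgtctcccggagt
PDK1: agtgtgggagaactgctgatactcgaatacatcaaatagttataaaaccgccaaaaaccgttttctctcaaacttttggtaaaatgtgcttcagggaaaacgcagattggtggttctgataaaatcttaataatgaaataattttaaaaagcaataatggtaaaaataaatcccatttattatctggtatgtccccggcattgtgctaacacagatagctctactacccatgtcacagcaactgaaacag
The LDHA window held 5 matches, 4 of them from 2 palindromes, and the CA9 window held 1, which begins at position -18 counted from the start site.

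At the high dose most of the 39 members rose in both gingers and in Sayeok-tang, and 21 rose in Pinelliae Tuber. Scutellariae Radix moved them both ways and Bojungikgi-tang moved few. A gene is called here when its adjusted p fell below 0.05 in edgeR's quasi-likelihood test with Benjamini-Hochberg adjustment over all 13945 genes. Zingiberis Rhizoma Recens raised 37 members and lowered none, where 24.3% of all genes were called higher and 23.6% lower, and the median member rose by a log2 fold change of 0.71 against 0 over all genes. Sayeok-tang raised 34 and lowered none (20.3% and 19.9% of all genes), with a median of 0.39 against 0. Zingiberis Rhizoma raised 28 and lowered 1, SLC2A3 (23.3% and 22.8% of all genes), with a median of 0.31. Pinelliae Tuber raised 21 and lowered SLC2A1 and ALDOC (9.14% and 6.57% of all genes), with a median of 0.15. Its 23 calls became 16 to 19 with 1 library left out at a time. Scutellariae Radix raised 19 and lowered 9, where 28.7% and 28.1% of all genes were called, so the 9 falls were a share close to the background. Bojungikgi-tang raised 4 members (HK2, GPI, PFKP and ALDOA) and lowered none (2.24% and 2.31% of all genes), and its median was 0.03. Those 4 calls were not stable: 2 members were called without vehicle replicate 1, 2 without vehicle replicate 2, 1 without vehicle replicate 3, 0 without Bojungikgi-tang high replicate 2 and 1 without its replicate 3. All comparisons with the vehicle share its 3 libraries, so their counts are not independent of each other. In RNA from whole cultures, a change in the kinds of cells and a change in RNA per cell cannot be told apart.

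**Figure D1:**
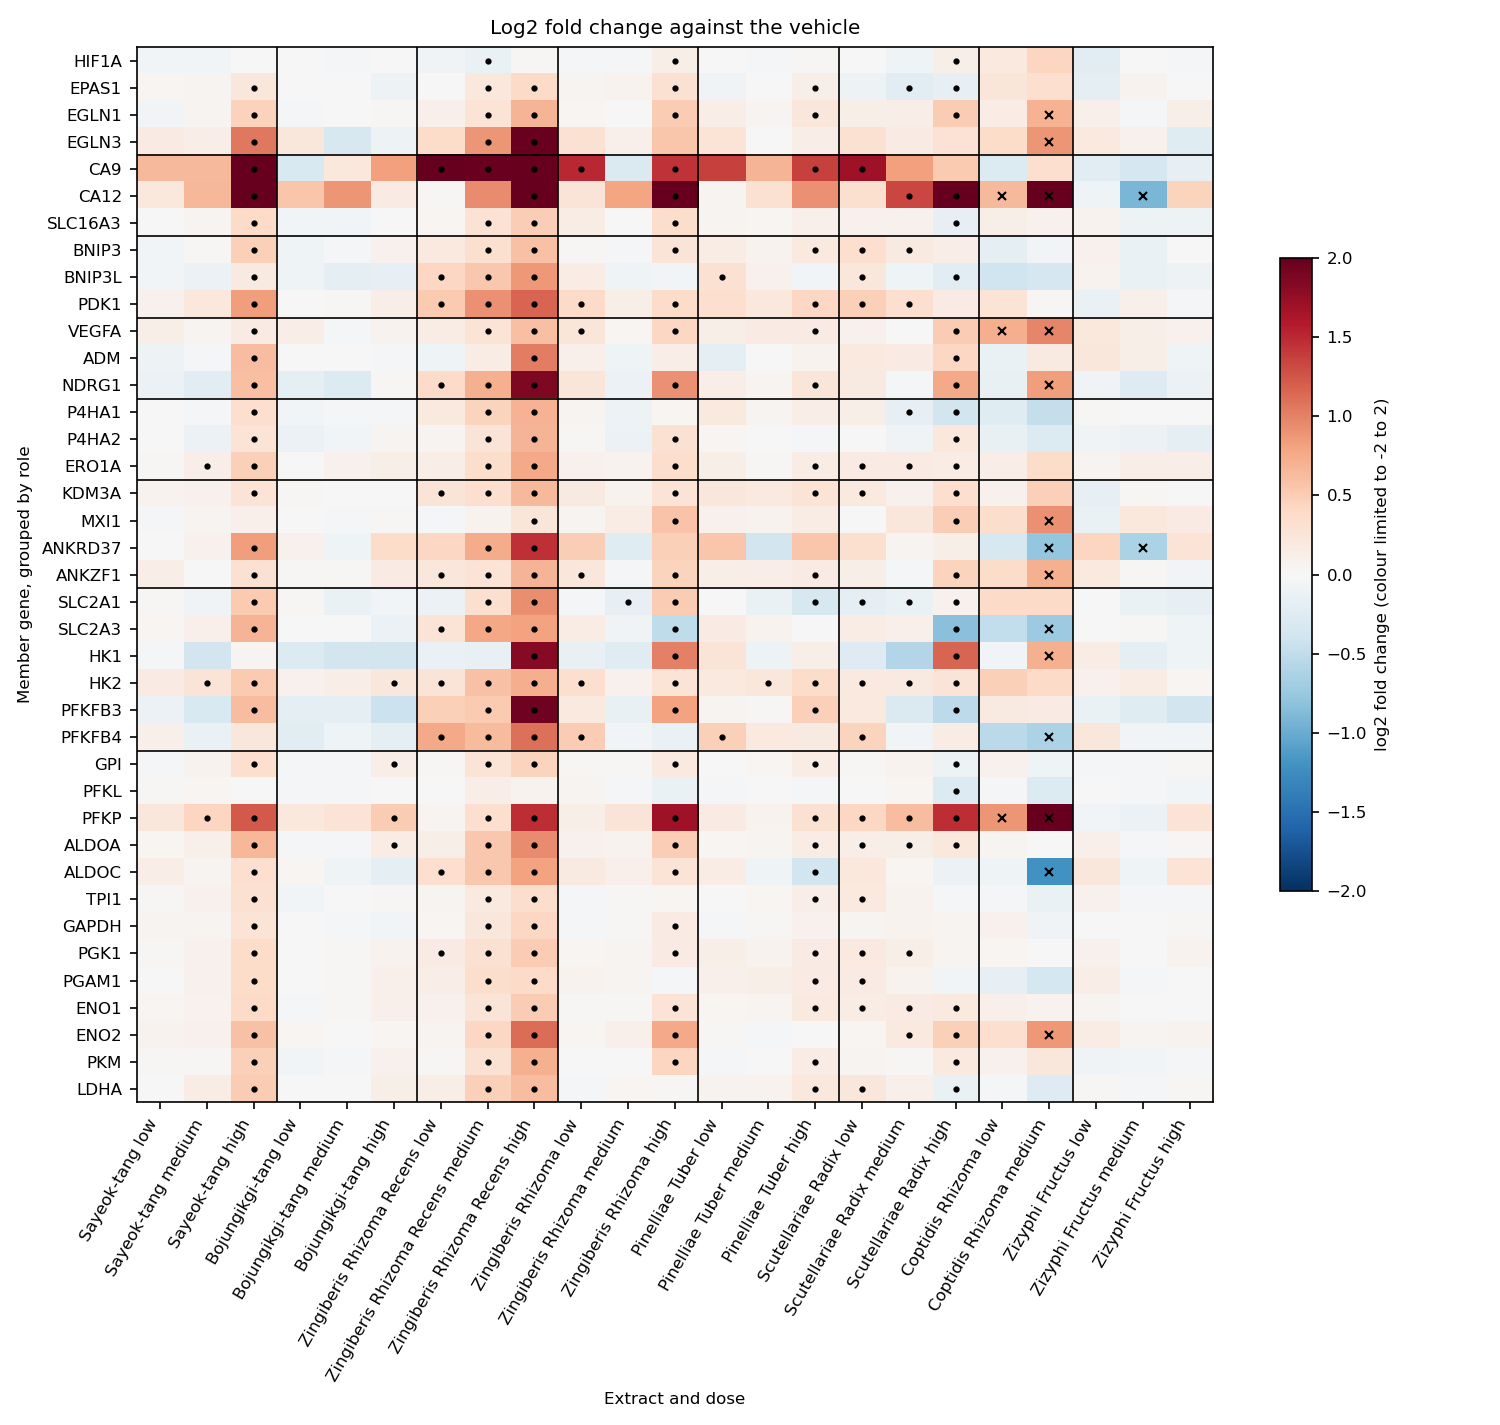
Log2 fold change of each member (rows, grouped by role) against the vehicle for every extract and dose (columns), with colour limited to -2 to 2, dots for members called at an adjusted p below 0.05 and crosses for single libraries past a 1.5-fold difference and outside the vehicle range. The high dose of Zingiberis Rhizoma Recens has dots in 37 of 39 rows, all of them rises, while the medium and low doses of Bojungikgi-tang have none.

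The HIF subunits and oxygen sensors differed among themselves. HIF1A mRNA, which encodes the main oxygen-regulated subunit, stood at 240, 252 and 247 CPM in the vehicle and at 239, 257 and 259 CPM at the high dose of Zingiberis Rhizoma Recens. These ranges overlapped, with a log2 fold change of 0.03 (SE 0.035, adjusted p 0.46). HIF1A was called in only 3 of 18 replicated comparisons with the vehicle: lower at the medium dose of Zingiberis Rhizoma Recens (223 to 229 CPM, log2 fold change -0.13) and higher by 0.12 at the high doses of Zingiberis Rhizoma (268 and 269 CPM) and of Scutellariae Radix (254 to 281 CPM). Each of those 3 calls was lost when 1 library was left out (vehicle replicate 2, Zingiberis Rhizoma high replicate 2 and Scutellariae Radix high replicate 2), with adjusted p-values of 0.069, 0.054 and 0.055. EPAS1, the other alpha subunit, went from 230, 238 and 232 CPM in the vehicle to 314, 299 and 298 CPM in Zingiberis Rhizoma Recens high, a log2 rise of 0.38. Scutellariae Radix high gave 216, 207 and 202 CPM, below every vehicle library (-0.17, SE 0.036, adjusted p 9.8e-05).

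EGLN1 and EGLN3 encode prolyl hydroxylases that turn HIF off and are themselves HIF targets. EGLN1 rose at the high dose of 5 of the 6 replicated extracts, by 0.22 (Pinelliae Tuber) to 0.68 (Zingiberis Rhizoma Recens) on the log2 scale, and was at 0.03 in Bojungikgi-tang. EGLN3 was scarce, with 23, 19 and 24 counts in the vehicle libraries (0.947, 0.707 and 0.944 CPM). EGLN3 reached 1 CPM in 29 of 58 libraries and in none of the vehicle, so treated groups carried it through the filter. Its level was 3.93, 2.74 and 3.61 CPM in Zingiberis Rhizoma Recens high and 1.96, 2.17 and 1.32 CPM in Sayeok-tang high. Every one of those libraries exceeded the vehicle, and the log2 rises were 1.98 (SE 0.224, adjusted p 3.7e-10) and 1.06 (SE 0.242, adjusted p 0.00041). In Zingiberis Rhizoma, Pinelliae Tuber and Scutellariae Radix at the high dose EGLN3 was not called.

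Of all members, CA9 had the largest log2 rise in Zingiberis Rhizoma Recens high. CA9, a carbonic anhydrase of the cell surface that acidifies the outside of the cell, had 0.37, 0.26 and 0.669 CPM in the vehicle and 7.82, 7.54 and 6.12 CPM in Zingiberis Rhizoma Recens high. All 3 treated libraries lay far above the vehicle, and the log2 rise was 4.04 (SE 0.343, adjusted p 9.5e-14). Sayeok-tang high reached 2.74, 2.13 and 2.74 CPM, a rise of 2.55 (SE 0.384, adjusted p 5e-07). The vehicle values rest on 9, 7 and 17 counts, so the size of these folds is imprecise. CA9 was called higher in 8 of 18 comparisons with the vehicle, and 3 of the 8 calls were kept when each library was left out in turn. CA12, another carbonic anhydrase of the cell surface, was scarcer, with 4, 5 and 6 counts in the vehicle. It reached 1 CPM in only 5 of 58 libraries, so it entered the test through the groups where it was high. It is given as a description with no p-value. It stays in the counts of called members, as do CA9 and EGLN3. Its level was 1.65 and 1.48 CPM in Zingiberis Rhizoma high against 0.165, 0.186 and 0.236 CPM in the vehicle, a log2 difference of 2.97. The log2 differences were 2.31 in Zingiberis Rhizoma Recens high and in Scutellariae Radix high and 2.14 in Sayeok-tang high. SLC16A3, the lactate exporter MCT4, was abundant (430, 428 and 434 CPM in the vehicle). It rose to 653, 554 and 608 CPM in Zingiberis Rhizoma Recens high (0.49) and fell to 392, 368 and 387 CPM in Scutellariae Radix high (-0.17, SE 0.057, adjusted p 0.0096).

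**Figure D2:**
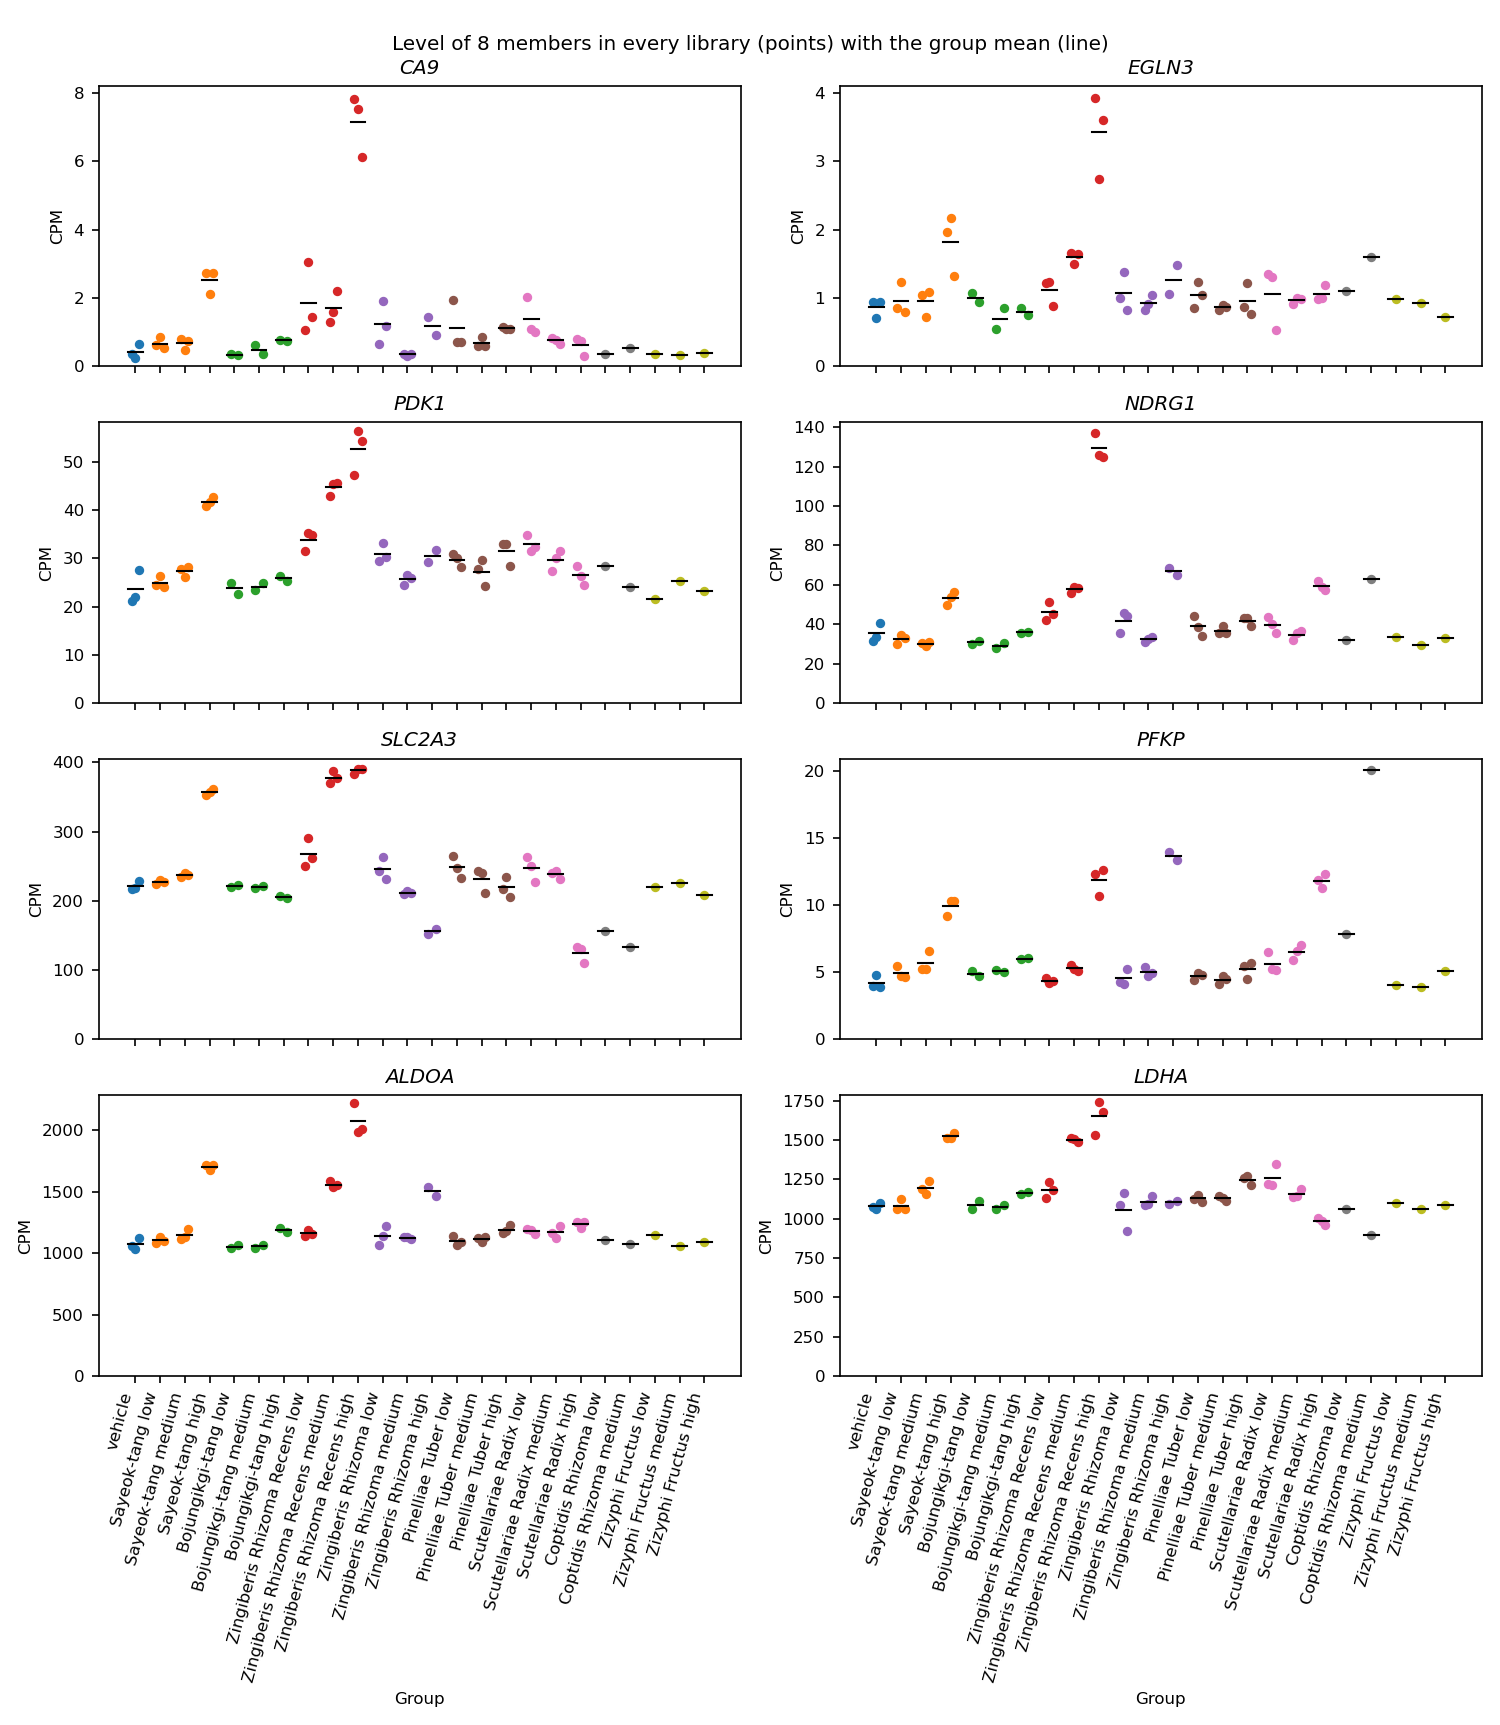
CPM of 8 members (panels, linear axis from 0) in every library (points) with the group mean (line), for all 24 groups along the horizontal axis. CA9 and EGLN3 peak at the high dose of Zingiberis Rhizoma Recens at means of 7.16 and 3.43 CPM, whereas SLC2A3 is at 389 CPM there and at 125 CPM in Scutellariae Radix high.

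Genes that act on mitochondria rose most in Zingiberis Rhizoma Recens. PDK1, the kinase that shuts pyruvate out of the mitochondrial cycle, was at 21.1, 22 and 27.6 CPM in the vehicle. Its levels in Zingiberis Rhizoma Recens were 47.3, 56.4 and 54.4 CPM at the high dose, 43, 45.4 and 45.7 CPM at the medium dose and 31.5, 35.3 and 34.8 CPM at the low dose. All 9 of these libraries exceeded the vehicle, and the log2 rises were 1.16, 0.92 and 0.52 (SE 0.076, 0.077 and 0.079, adjusted p 2.3e-17, 1e-12 and 6.6e-05). PDK1 was called in 9 of 18 comparisons with the vehicle, always higher, and 8 of the 9 calls were kept with each library left out in turn. BNIP3 and BNIP3L encode mitophagy receptors. BNIP3 rose by 0.58 in Zingiberis Rhizoma Recens high and by 0.47 in Sayeok-tang high, and pseudogenes named after it took 1.05% of the reads assigned to the gene and its pseudogenes. BNIP3L was at 25.1, 25.2 and 27.5 CPM in the vehicle and at 43.6, 48.7 and 48.8 CPM in Zingiberis Rhizoma Recens high (0.86, SE 0.068, adjusted p 9.8e-15). In Scutellariae Radix high it fell to 23.5, 22 and 21 CPM (-0.22, adjusted p 0.0074), a call that was lost without vehicle replicate 3 (adjusted p 0.059).

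Among secreted and stress-related targets, NDRG1 stood out, a stress-response gene often used to report HIF activity. It had 31.7, 33.7 and 40.5 CPM in the vehicle and 137, 126 and 125 CPM in Zingiberis Rhizoma Recens high. The groups were well apart, with a log2 rise of 1.87 (SE 0.08, adjusted p 6.9e-24). NDRG1 also rose by 0.92 in Zingiberis Rhizoma, 0.75 in Scutellariae Radix, 0.60 in Sayeok-tang and 0.24 in Pinelliae Tuber at the high dose. The last of these calls (adjusted p 0.049) was lost with DESeq2 (adjusted p 0.052), with relative log expression size factors (0.063) and when any of 4 libraries was left out (at most 0.26). VEGFA, the growth factor for blood vessels, went from 88.6, 86.7 and 91.9 CPM in the vehicle to 139, 135 and 132 CPM in Zingiberis Rhizoma Recens high (0.60, SE 0.041, adjusted p 8e-17) and to 126, 125 and 127 CPM in Scutellariae Radix high (0.50). All 7 of its calls against the vehicle were rises and were kept with each library left out. ADM, the vasodilator adrenomedullin, rose from 6.3, 6.21 and 6.88 CPM in the vehicle to 13.2, 12.2 and 13.9 CPM in Zingiberis Rhizoma Recens high (1.02, SE 0.1, adjusted p 8.1e-12). It rose by 0.62 in Sayeok-tang and by 0.41 in Scutellariae Radix at the high dose, whereas the values in Zingiberis Rhizoma (0.13), Pinelliae Tuber (0.07) and Bojungikgi-tang (-0.04) did not pass the test.

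Of the genes of prolyl hydroxylation and protein folding, P4HA1 moved in opposite directions against the vehicle in Zingiberis Rhizoma Recens and Scutellariae Radix, whereas P4HA2 and ERO1A rose in both. P4HA1, a subunit of the enzyme that hydroxylates collagen, was at 69.1, 68.7 and 74 CPM in the vehicle. It was higher in all 3 libraries of Zingiberis Rhizoma Recens high (107, 118 and 118 CPM, 0.69) and lower in all 3 of Scutellariae Radix high (56.3, 55.3 and 52.2 CPM, -0.37, SE 0.058, adjusted p 4.4e-07). P4HA2, the paralogous subunit, rose in both, by 0.68 and 0.21. ERO1A, which forms disulfide bonds in the endoplasmic reticulum, rose from 131, 134 and 135 CPM to 210, 235 and 231 CPM in Zingiberis Rhizoma Recens high (0.76, SE 0.038, adjusted p 3e-21). It was called higher in 9 of 18 comparisons with the vehicle and lower in none.

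Of the chromatin and other targets, KDM3A, a histone demethylase, rose at the high dose in 5 of 6 extracts, by 0.27 to 0.65. ANKZF1, a factor of ribosome quality control, also rose in those 5, by 0.16 to 0.68. MXI1, a repressor that opposes MYC, had a different order. It was at 9.26, 7.63 and 8.42 CPM in the vehicle, at 12.8 and 12.2 CPM in Zingiberis Rhizoma high (0.57) and at 9.37, 10.8 and 9.7 CPM in Zingiberis Rhizoma Recens high (0.24). ANKRD37, a small ankyrin repeat gene, rose from 1.28, 1.04 and 1.69 CPM to 3.73, 3.63 and 3.69 CPM in Zingiberis Rhizoma Recens high (1.46, SE 0.216, adjusted p 2.1e-07). In Scutellariae Radix high its libraries (1.86, 0.994 and 1.46 CPM) overlapped the vehicle.

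Both glucose transporters moved in opposite directions in different extracts. SLC2A3, the high-affinity transporter GLUT3, had 218, 219 and 229 CPM in the vehicle. It was at 384, 391 and 391 CPM in Zingiberis Rhizoma Recens high, 370, 387 and 377 CPM at its medium dose and 353, 357 and 362 CPM in Sayeok-tang high. The log2 rises were 0.81, 0.77 and 0.68 (SE 0.056 each, adjusted p 1.5e-16, 1.7e-14 and 6.3e-14). In contrast, it was at 153 and 159 CPM in Zingiberis Rhizoma high and at 133, 130 and 110 CPM in Scutellariae Radix high. Every one of these libraries lay below the vehicle, with log2 fold changes of -0.51 (SE 0.065, adjusted p 8.7e-09) and -0.83 (SE 0.058, adjusted p 8e-17). SLC2A1, the widespread transporter GLUT1, moved in both directions as well. Against 581, 569 and 597 CPM in the vehicle it reached 1153, 1108 and 1070 CPM in Zingiberis Rhizoma Recens high (0.93, SE 0.037, adjusted p 4.4e-25), while Pinelliae Tuber high gave 450, 469 and 482 CPM (-0.32, SE 0.037, adjusted p 1.6e-08). Of its 9 calls against the vehicle, 5 were higher and 4 lower, and the one in Scutellariae Radix high (620, 624 and 611 CPM, 0.09, adjusted p 0.041) was lost with relative log expression size factors (0.054). In Zingiberis Rhizoma the direction turned with dose, from a fall of 0.17 at the medium dose (517 to 519 CPM, the call being lost without vehicle replicate 3) to a rise of 0.50 at the high dose (839 and 806 CPM).

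The hexokinases and the PFKFB enzymes, which commit glucose to glycolysis and set its pace, were also uneven. HK2 was the member called most often: it rose in 13 of 18 comparisons with the vehicle, including the high dose of all 6 replicated extracts. The vehicle, at 104, 108 and 101 CPM, had the lowest mean of all 24 groups, and Zingiberis Rhizoma Recens high the highest, at 173, 168 and 177 CPM (0.73, SE 0.05, adjusted p 1.6e-16). Of these 13 calls 8 were kept with each library left out in turn. HK1 was scarce here, at 0.905, 1 and 1.26 CPM in the vehicle. It rose to 3.85, 3.66 and 3.73 CPM in Zingiberis Rhizoma Recens high (1.82, SE 0.167, adjusted p 1.1e-12), by 1.16 in Scutellariae Radix high and by 1.00 in Zingiberis Rhizoma high, but was at 0.06 in Sayeok-tang high. PFKFB3, which makes the strongest activator of phosphofructokinase, went from 7.08, 6.14 and 7.79 CPM to 28.2, 25.6 and 27.4 CPM in Zingiberis Rhizoma Recens high. That was a log2 rise of 1.95 (SE 0.117, adjusted p 9.9e-19). Scutellariae Radix high had 5.9, 4.29 and 4.33 CPM, all below the vehicle (-0.52, SE 0.143, adjusted p 0.0018). PFKFB4, an isoform with the same pair of activities, rose by 1.10, 0.64 and 0.76 at the high, medium and low doses of Zingiberis Rhizoma Recens, and was called at the high dose of no other extract.

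The enzymes of the glycolytic chain rose broadly but by less. At the high dose 12 of the 13 enzymes rose in Zingiberis Rhizoma Recens, 12 in Sayeok-tang, 9 in Zingiberis Rhizoma, 9 in Pinelliae Tuber, 5 in Scutellariae Radix and 3 in Bojungikgi-tang. Over all genes the shares called higher were, in the same order, 24.3%, 20.3%, 23.3%, 9.14%, 28.7% and 2.24%, so the count in Scutellariae Radix was near its background. Falls were limited to ALDOC in Pinelliae Tuber and to 3 enzymes (GPI, PFKL and LDHA) in Scutellariae Radix. ALDOA, the main aldolase of these cells, was at 1060, 1037 and 1120 CPM in the vehicle, 2225, 1989 and 2012 CPM in Zingiberis Rhizoma Recens high and 1717, 1678 and 1717 CPM in Sayeok-tang high. The groups did not overlap, and the log2 rises were 0.95 (SE 0.04, adjusted p 3.2e-24) and 0.67 (SE 0.04, adjusted p 1.9e-18). ALDOC, the minor aldolase, rose by 0.80 in Zingiberis Rhizoma Recens but had 12.9, 13.3 and 11.8 CPM in Pinelliae Tuber high against 15.3, 14.7 and 18.8 CPM in the vehicle (-0.36, adjusted p 0.0014). That fall was lost without vehicle replicate 3 (adjusted p 0.057).

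Phosphofructokinase, the pacemaker of the pathway, split by isoform. PFKL, the liver isoform, was at 151, 152 and 156 CPM in the vehicle and was the least responsive member. Its single call against the vehicle was a fall to 127, 122 and 130 CPM in Scutellariae Radix high (-0.27, SE 0.053, adjusted p 2.7e-05). PFKP, the platelet isoform, rose at the high dose of all 6 replicated extracts, from 3.99, 4.8 and 3.89 CPM in the vehicle to 14 and 13.4 CPM in Zingiberis Rhizoma (1.69), 12.3, 10.7 and 12.6 CPM in Zingiberis Rhizoma Recens (1.48) and 11.9, 11.3 and 12.3 CPM in Scutellariae Radix (1.48). Standard errors of these 3 rises were 0.107, 0.099 and 0.099, and the adjusted p-values were 8.3e-18, 4.4e-17 and 2.4e-17. The PFKP call in Pinelliae Tuber (0.30, adjusted p 0.05) was lost with DESeq2 (adjusted p 0.13), without the filter (0.14) and when any of 4 libraries was left out (at most 0.21). On a scale per kilobase of exon, the vehicle had 17.1 CPM per kilobase of PFKL and 0.874 of PFKP, so PFKL was the main isoform of the pair.

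At the later steps, LDHA, which turns pyruvate into lactate, was at 1077, 1059 and 1099 CPM in the vehicle and at 1535, 1741 and 1679 CPM in Zingiberis Rhizoma Recens high. The rise was 0.62 (SE 0.049, adjusted p 1.2e-14), and Sayeok-tang high (1513, 1510 and 1546 CPM) was close behind with 0.50. In Zingiberis Rhizoma high (1093 and 1113 CPM) LDHA was not called (0.03, adjusted p 0.65). Scutellariae Radix high gave 1004, 988 and 959 CPM (-0.13, SE 0.049, adjusted p 0.019), a fall that was lost without vehicle replicate 3 (adjusted p 0.067) or its own replicate 3 (0.077). GAPDH, often used as a reference gene, was not constant: it was at 2172, 2131 and 2290 CPM in the vehicle and at 3083, 2930 and 2828 CPM in Zingiberis Rhizoma Recens high (0.42, SE 0.043, adjusted p 1.8e-11). PGK1, which catalyses an ATP-yielding step, rose by 0.50, 0.36, 0.17 and 0.16 in Zingiberis Rhizoma Recens, Sayeok-tang, Pinelliae Tuber and Zingiberis Rhizoma at the high dose. ENO1, the general enolase, rose in the same 4 extracts and in Scutellariae Radix, by 0.20 to 0.50, and all 8 of its calls against the vehicle were kept with each library left out. ENO2, the neuronal enolase, went from 45.4, 48.3 and 46 CPM to 102, 104 and 98.2 CPM in Zingiberis Rhizoma Recens high (1.12, SE 0.051, adjusted p 4.8e-23). PKM, the pyruvate kinase of most dividing cells, rose by 0.15 to 0.71 at the high dose of 5 extracts, with Bojungikgi-tang at 0.09.

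At the medium dose most members rose in Zingiberis Rhizoma Recens, and few in the formulas. Zingiberis Rhizoma Recens raised 33 members there and lowered 1, HIF1A, where 6.63% of all genes were called higher and 4.66% lower. Its low dose raised 11 and lowered none (0.509% and 0.0932% of all genes), of which 5 were called without vehicle replicate 1, 5 without vehicle replicate 2 and 3 without its own replicate 2. The 11 were CA9 (2.10), PFKFB4 (0.76), PDK1 (0.52), BNIP3L (0.41), NDRG1 (0.39), ALDOC (0.34), SLC2A3 (0.27), KDM3A (0.26), HK2 (0.25), ANKZF1 (0.23) and PGK1 (0.17). Sayeok-tang raised 3 members at the medium dose (ERO1A, HK2 and PFKP, 2.17% of all genes called higher and 2.04% lower), 1 without vehicle replicate 1 or without its own replicate 3, and none at the low dose (0.0143% and 0.043%), where 3 members had an unadjusted p below 0.05 and DESeq2 also called 0. In Bojungikgi-tang none was called at the medium dose (0.0215% higher and 0.043% lower, with 6 members at an unadjusted p below 0.05 and 1 called by DESeq2) or the low dose (0% each way, with 1 member at an unadjusted p below 0.05 and 0 called by DESeq2).

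In dried ginger, Pinelliae Tuber and Scutellariae Radix the counts at the low and medium doses depended on the fit. Zingiberis Rhizoma lowered 1 member at the medium dose, SLC2A1 (0.703% of all genes higher and 0.746% lower), none without vehicle replicate 3. At the low dose it raised 6 (PDK1, CA9, VEGFA, ANKZF1, HK2 and PFKFB4, against 1.69% and 0.43%). Of these, 3 were called without vehicle replicate 1, 4 with 3 doubted libraries left out and 1 in a fit of only the groups compared. The doubted libraries were replicate 3 of Scutellariae Radix low, replicate 3 of Zingiberis Rhizoma low and the single library of Zizyphi Fructus low. The last has no replicate to be compared with. Pinelliae Tuber raised HK2 alone at the medium dose (0.122% and 0.165%) and BNIP3L and PFKFB4 at the low dose (0.237% and 0.0359%). The first of these was lost without vehicle replicate 1, vehicle replicate 3 or its own replicate 1 or 2, and of the other 2 calls 0 were made without vehicle replicate 1 or its own replicate 1 and 1 without vehicle replicate 2 or its own replicate 2. Scutellariae Radix raised 10 and lowered 3 at the medium dose (8.99% and 9.33%) and raised 15 and lowered 1, SLC2A1, at the low dose (5.44% and 4.87%). In a fit of only the groups compared, Scutellariae Radix had 12 calls at the medium dose and 4 at the low dose, so the order of the doses turned.

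**Figure D3:**
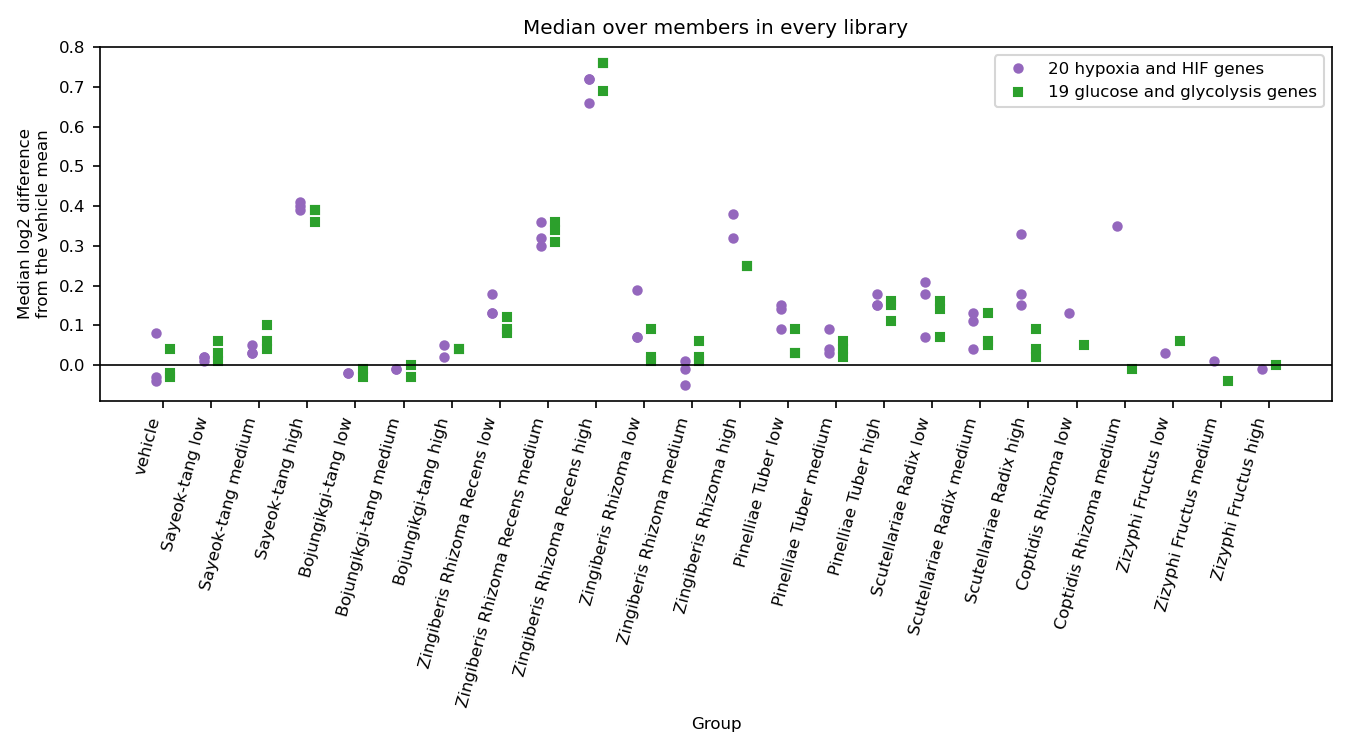
Median log2 difference from the vehicle mean over the 20 hypoxia and HIF genes (circles) and the 19 glucose and glycolysis genes (squares) in every library, by group. The 3 libraries of Zingiberis Rhizoma Recens high lie between 0.66 and 0.76 in both sets, and those of Sayeok-tang high between 0.36 and 0.41.

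High against low dose of the same extract avoids the vehicle. In Zingiberis Rhizoma Recens 38 members were higher at the high dose and none lower (23.3% and 24.3% of all genes), with PFKL alone not called (0.06, adjusted p 0.35). In Sayeok-tang 33 were higher and none lower (18.4% and 19.3% of all genes). Zingiberis Rhizoma had 23 higher and 5 lower (23.2% and 24.3%), and the 5 were SLC2A3 (-0.66), PFKFB4 (-0.64), BNIP3L (-0.21), PFKL (-0.18) and PGAM1 (-0.10). Scutellariae Radix had 14 higher and 16 lower (27.2% and 28.5%), so falls with dose were about as frequent as rises among the members, as among all genes. Its falls included CA9 (-1.16), SLC2A3 (-0.99), PFKFB3 (-0.72), P4HA1 (-0.49), BNIP3L (-0.45), LDHA (-0.36) and PDK1 (-0.31), and its rises CA12 (1.99), HK1 (1.43), PFKP (1.06) and NDRG1 (0.58). Pinelliae Tuber had 8 higher and 5 lower (5.09% and 4.98%), a total of 13 that became 8 without its high replicate 1 or its high replicate 3. Bojungikgi-tang had GPI alone higher and none lower (0.81% and 0.875%), and none when any of its libraries was left out.

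Low against medium dose was compared after the values were seen, because several hypoxia targets were higher at 20 than at 100 µg/mL. In Zingiberis Rhizoma 8 members were higher at the low dose and none lower (0.731% and 0.688% of all genes): CA9, VEGFA, NDRG1, ANKZF1, SLC2A1, SLC2A3, HK2 and PFKFB4. PFKFB4 had 15.9, 19.2 and 16.8 CPM at the low dose, 11.6, 12.5 and 11.2 CPM at the medium dose and 12.1 and 10.1 CPM at the high dose. The low dose did not overlap the others, and exceeded the medium dose by 0.55 (SE 0.092, adjusted p 0.00091). The 8 calls became 3 without medium replicate 1 or 2, 2 without medium replicate 3, 5 without low replicate 2 and 4 without low replicate 3. They became 6 with the 3 doubted libraries left out and 0 in a fit of only the groups compared. Scutellariae Radix had 4 higher at the low dose and none lower (2.21% and 1.76%): PFKFB4 (0.51), PFKFB3 (0.49), BNIP3L (0.31) and P4HA1 (0.28). BNIP3L was at 31.1, 30 and 30.1 CPM at the low dose, 23.2, 23 and 27.2 CPM at the medium dose and 23.5, 22 and 21 CPM at the high dose (low against medium, adjusted p 0.0034). Zingiberis Rhizoma Recens ran the other way, with 22 members lower at the low than the medium dose and none higher (5.13% lower and 4.29% higher of all genes). No member was called by edgeR or by DESeq2 in Pinelliae Tuber (0.122% higher and 0% lower), Sayeok-tang (0.344% and 0.208%) or Bojungikgi-tang (0.00717% each way), where 7, 8 and 2 members had an unadjusted p below 0.05. In Pinelliae Tuber the low dose differed from the medium dose by 0.29 for PFKFB4 (SE 0.092, adjusted p 0.52) and by 0.23 for BNIP3L (SE 0.069, adjusted p 0.43).

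**Figure D4:**
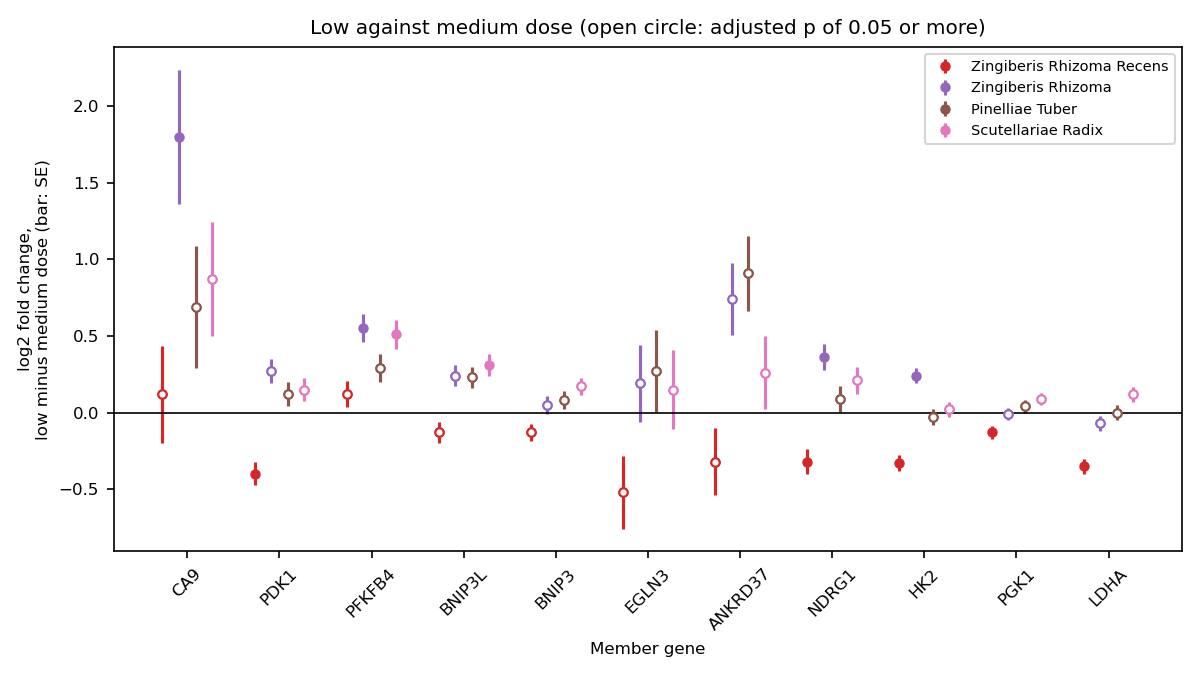
Log2 fold change of the low against the medium dose for 11 members, chosen after their values were seen, in 4 extracts (colours), with SE bars and open circles for members that were not called. CA9 and PFKFB4 are above 0 in Zingiberis Rhizoma (1.80 and 0.55), and PFKFB4 is also above 0 in Scutellariae Radix (0.51).

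Fresh and dried ginger could be compared directly at the same doses. At the high dose 33 members were higher in Zingiberis Rhizoma Recens than in Zingiberis Rhizoma and 2 lower, against 13.2% and 10.2% of all genes, and the median difference was 0.38 against 0 over all genes. The widest differences were in CA9 (2.59, SE 0.339, adjusted p 5.8e-08), EGLN3 (1.42), SLC2A3 (1.32, SE 0.066, adjusted p 1.9e-20), PFKFB4 (1.23, SE 0.105, adjusted p 7.5e-13) and PFKFB3 (1.15). SLC2A3 was at 384 to 391 CPM in the fresh and 153 to 159 CPM in the dried ginger libraries, on opposite sides of the vehicle (218 to 229 CPM). The exceptions were MXI1 (-0.32, adjusted p 0.011) and the scarce CA12 (-0.66). The CA12 call was lost with DESeq2, without the filter on low counts and in a fit of only the groups compared. At the medium dose 33 members were again higher in fresh ginger and none lower, against 4.31% and 2.85% of all genes. PDK1 differed there by 0.80 (43 to 45.7 against 24.5 to 26.5 CPM, adjusted p 5.9e-11) and NDRG1 by 0.83. Dried ginger at the high dose had 2 libraries, and both comparisons lie within 1 label code.

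**Figure D5:**
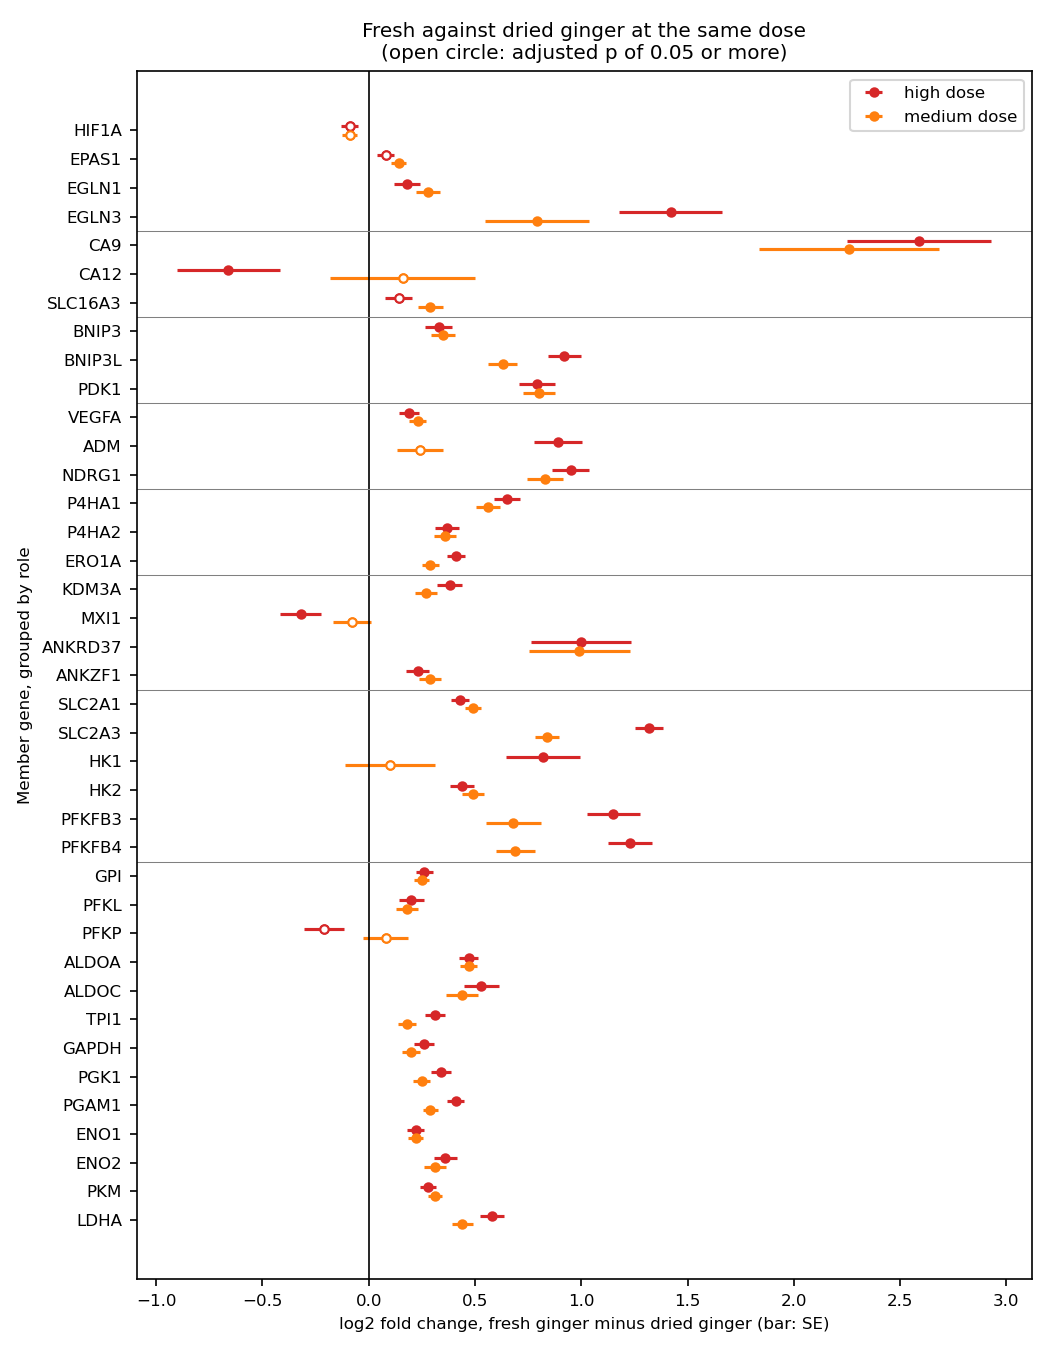
Log2 fold change of Zingiberis Rhizoma Recens minus Zingiberis Rhizoma for each member at the high dose (red) and the medium dose (orange), with SE bars and open circles for members that were not called. At the high dose 33 members lie right of 0 as called rises, and CA12 and MXI1 lie left of it.

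The formulas also differed at the high dose. In Sayeok-tang 32 members were higher than in Bojungikgi-tang and none lower, against 13.2% and 13% of all genes. Wide differences were those in CA9 (1.73), EGLN3 (1.16), PFKFB3 (1.05) and SLC2A3 (0.79, SE 0.064, adjusted p 1.1e-13). CA12, which entered the test through the few libraries where it was high, was at 0.883 against 0.22 CPM. HIF1A was not called (249 against 248 CPM, 0.01, SE 0.039, adjusted p 0.93). Bojungikgi-tang had 2 libraries a dose.

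Pinelliae Tuber and Scutellariae Radix at the high dose differed in both directions, with 13 members higher and 14 lower in Pinelliae Tuber, against 28.7% and 27.2% of all genes. Higher in Pinelliae Tuber were PFKFB3 (1.01), SLC2A3 (0.82), P4HA1 (0.50), LDHA (0.34) and EPAS1 (0.29), among others. Higher in Scutellariae Radix were CA12 (-1.40 on the same scale), PFKP (-1.17), HK1 (-1.06), NDRG1 (-0.52) and ENO2 (-0.48). The shares of members called each way were 13 and 14 of 39, near those of all genes.

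Coptidis Rhizoma and Zizyphi Fructus had 1 library a dose, so their values have no replicate check and no p-value. Members are named here where the library differed from the vehicle mean by more than 1.5-fold and lay outside the vehicle range. At 56 µg/mL of Coptidis Rhizoma 14 members were past that bound, 10 upward and 4 downward, against 21.1% of all genes in either direction. The upward set held PFKP (20.1 against a vehicle mean of 4.23 CPM), CA12 (1.46 against 0.196 CPM), VEGFA (175 against 89.1 CPM), MXI1, ENO2, EGLN3, NDRG1, HK1, ANKZF1 and EGLN1. The downward set was ALDOC (7.02 against 16.3 CPM), ANKRD37, SLC2A3 (133 against 222 CPM) and PFKFB4. HIF1A had its highest level of all 24 groups there, 331 CPM, and CA9 was at 0.547 CPM, within the vehicle range. At 11.2 µg/mL CA12, VEGFA and PFKP were above the bound and none below (5.92% of all genes either way). Zizyphi Fructus had none past it at the high dose (2.37% either way), CA12 and ANKRD37 below at the medium dose (2.56%) and none at the low dose (3.38%). Without vehicle replicate 3, 1 member was past the bound at each of the 3 doses.

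The other genes of the pathway were read from lists of their own, also chosen with earlier results of these data known. Of 29 further HIF targets 20 rose and 1 fell at the high dose of Zingiberis Rhizoma Recens, where the list's median was 0.54 and 24.3% of all genes were called higher and 23.6% lower. The rises included LOXL2, a collagen cross-linking enzyme (0.929 to 3.95 CPM, 2.08), and the fall was in PPP1R3C (-0.29), a glycogen-targeting subunit. In Sayeok-tang 14 rose and 3 fell, in Zingiberis Rhizoma 14 and 6, in Pinelliae Tuber 10 and 1, in Bojungikgi-tang 1 and 0. The shares of all genes called higher and lower were 20.3% and 19.9% in Sayeok-tang, 23.3% and 22.8% in Zingiberis Rhizoma, 9.14% and 6.57% in Pinelliae Tuber and 2.24% and 2.31% in Bojungikgi-tang, so the falls in Zingiberis Rhizoma were near the background. Scutellariae Radix raised 12 and lowered 10 (28.7% and 28.1% of all genes), with BHLHE40 (1.61) among the rises and ANGPTL4 (-1.99) and ZNF395 (-0.91) the steepest falls. Of 13 further genes of the HIF machinery (partners and degradation factors) none rose and 5 fell in Zingiberis Rhizoma Recens high, led by the ubiquitin ligase SIAH2 (121 to 85 CPM, -0.51) and the partner ARNT2 (-0.41).

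Genes around the pathway moved less evenly. The shares of all genes called higher and lower, against which their counts are read, were 24.3% and 23.6% in Zingiberis Rhizoma Recens high, 23.3% and 22.8% in Zingiberis Rhizoma high and 28.7% and 28.1% in Scutellariae Radix high. Of 11 genes that bring pyruvate into mitochondria, 1 rose and 7 fell in Zingiberis Rhizoma Recens high, among them the carrier subunits MPC1 (98.8 to 68.9 CPM, -0.52) and MPC2 (73.8 to 52 CPM, -0.50), while the phosphatase PDP1 rose (0.40). Of 14 liver isoforms and other glycolytic genes 5 rose and 5 fell there, with HKDC1, a hexokinase domain protein, at 60 against 28 CPM (1.10), GCKR, the glucokinase regulator, at 0.86, and SLC2A2, the liver glucose transporter, and ENO3 both at -0.64. Of 7 pentose phosphate genes 5 rose and none fell in Scutellariae Radix high and in Zingiberis Rhizoma high, against 3 and 1 in Zingiberis Rhizoma Recens high. Of 7 glycogen genes 3 rose and 2 fell, and of 5 gluconeogenic genes 2 rose and 2 fell, in Zingiberis Rhizoma Recens high, small counts near those shares.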

How the data were processed

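HepG2 mRNA was sequenced as directional libraries, and the deposited values are expected counts per gene, estimated by the authors with RSEM 1.3.3 after STAR 2.7.3a, Trim Galore 0.6.5 and FastQC 0.11.9 on GRCh38, per the submitters' processing notes. RSEM shares reads among similar genes. The strand setting and the annotation release are not given in the sources used here. Of the nonzero values 75.26% were whole within 0.005, and all were rounded. Columns that match no sample analysed here (209) were not used. The wortmannin control was not analysed here.

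The filter kept the 13945 genes that reached 1 CPM in 3 or more libraries, and trimmed-mean (TMM) factors ran from 0.878 to 1.035. One edgeR 4.0.16 (R 4.3.3, limma 3.58.1) quasi-likelihood model with 24 group means over all 58 libraries (34 residual degrees of freedom, common dispersion 0.00181) gave two-sided tests, Benjamini-Hochberg adjusted over all genes, with a threshold of 0.05. Levels are CPM on TMM-scaled library sizes. Standard errors are those of the log2 fold change. Library medians used log2(CPM + 0.5). Groups of 1 library were described by a fold of 1.5 and by lying outside the vehicle range. The method was tested on simulated data. Alternatives were relative log expression size factors, no filter, only the groups compared, a replicate block, libraries left out and DESeq2 1.42.0.

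The members and lists were chosen with earlier results of these data known. Any member may be named. Full statistics go to a panel of 17 members and to the 5 largest rises and falls of each comparison, and other lists name at most 2 in each direction, of which some are not reported here. Gene symbols were matched for 57055 of 60675 identifiers. Replicate numbers were not used to pair the samples. In 0 of 20 comparisons with 3 pairs did every pair of same-numbered libraries correlate above 0.1. Among comparisons with 2 pairs, Bojungikgi-tang high against low had 0.124 in both. With so few libraries a group, this cannot exclude pairing.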

Additional observations from a re-analysis of the deposited data

Results flagged for a closer look

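Some members moved in opposite directions against the vehicle in extracts that were also compared directly. They were picked for this, and the direct comparison reuses the same treated libraries in the same fit. Its call (edgeR quasi-likelihood test, Benjamini-Hochberg adjustment), made in each case, was therefore nearly fixed in advance and is no further support. SLC2A3 was higher in Zingiberis Rhizoma Recens high than in Zingiberis Rhizoma high by a log2 fold change of 1.32 (SE 0.066, adjusted p 1.9e-20), with 0.81 and -0.51 against the vehicle. Between Pinelliae Tuber high and Scutellariae Radix high the differences were 1.01 for PFKFB3 (0.48 and -0.52 against the vehicle, adjusted p 1.7e-08), 0.34 for LDHA (0.21 and -0.13, adjusted p 6.2e-08), 0.29 for EPAS1 (0.12 and -0.17, adjusted p 2.6e-09) and 0.25 for GPI (0.15 and -0.10, adjusted p 5.4e-08). SLC2A1 differed the other way, by -0.41 (-0.32 and 0.09, adjusted p 6e-13). Against the vehicle, the Scutellariae Radix call of SLC2A1 was lost with relative log expression size factors. That of LDHA was lost when single libraries were left out. Between Pinelliae Tuber high and Scutellariae Radix high, 28.7% of all genes were called higher and 27.2% lower.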

How the results depend on the processing

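The 325 called differences of single members tried were those of the panel and the 5 largest rises and falls of each comparison. Under 3814 alternatives in all, 3528 kept direction and call, 286 lost the call and 0 changed direction. The alternatives refit the same libraries, so they are not independent checks. Losses came mostly from leaving out 1 library (214 of 1872) or fitting only the groups compared (39). Counts of called members moved by over 1.5 times in the following comparisons, among them Scutellariae Radix low (16 calls), Zingiberis Rhizoma Recens low (11) and Pinelliae Tuber high against low (13). Without the filter, Sayeok-tang medium had 5, Bojungikgi-tang medium 1, Zingiberis Rhizoma low 10, Pinelliae Tuber medium 2 and low 8, and low against medium had 14 in Zingiberis Rhizoma, 1 in Pinelliae Tuber and 7 in Scutellariae Radix. With only the groups compared, Bojungikgi-tang high had 1, Zingiberis Rhizoma low 1, Scutellariae Radix low 4, Bojungikgi-tang high against low 0, and low against medium 0 in Zingiberis Rhizoma and 1 in Scutellariae Radix. With DESeq2, Bojungikgi-tang medium had 1, Pinelliae Tuber medium 2 and low 4, and Bojungikgi-tang high against low 3, as it did with relative log expression size factors. The replicate block gave 2 in Pinelliae Tuber medium, 4 in Pinelliae Tuber low and 2 in Bojungikgi-tang high against low, moved no other count by over 1.5 times and lost 0 of the 325 calls. It rests on replicate numbers for which pairing was not shown. Without the 3 doubted libraries, Pinelliae Tuber medium had 2 and low 4, Bojungikgi-tang high against low 3 and Sayeok-tang low against medium 1. With a smaller fold as the bound, Coptidis Rhizoma medium had 23 and low 12, and Zizyphi Fructus high 2 and low 1. With each library left out in turn, the counts ran from 1 to 3 in Sayeok-tang medium, 0 to 2 in Bojungikgi-tang high, 3 to 12 in Zingiberis Rhizoma Recens low, 0 to 1 in Zingiberis Rhizoma medium, 3 to 7 in Zingiberis Rhizoma low, 0 to 1 in Pinelliae Tuber medium, 0 to 3 in Pinelliae Tuber low, 0 to 1, 1 to 3 and 0 to 1 in Zizyphi Fructus high, medium and low, 0 to 0 in Bojungikgi-tang high against low, 8 to 11 in Pinelliae Tuber high against low and 2 to 11 in Zingiberis Rhizoma low against medium. The cause of each move was not tested. Depth limits CA9, CA12, EGLN3, HK1 and ANKRD37, which had at most 43 counts in a vehicle library.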
